A study of Mus musculus with 8 samples.

Results

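Arg1, Arg2, Nos2, Ptgs2 and Il10 encode 5 products by which myeloid cells of a tumour can dampen or shape T cell responses: 2 arginases, inducible nitric oxide synthase, cyclooxygenase 2 and interleukin 10. They were chosen by symbol, and all 5 had a value among the 693 genes of the deposited table. The RNA came from whole 4MOSC1 tumours, a mouse oral squamous cell carcinoma line, grown from injected cells in the right cheek of female C57BL/6N mice aged 4 to 6 weeks. The CXCL10 group of 4 tumours had been injected with 10 µg of the chemokine CXCL10 in 50 µl of phosphate-buffered saline on days 3, 6 and 9, and the vehicle group of 4 tumours with 50 µl of the saline alone on the same days. The titles give day 10 as the day of collection for both groups, whereas the source labels run from day 14 to day 17 in the CXCL10 group and from day 10 to day 13 in the vehicle group. If those labels were right, day and treatment could not be told apart. The labels do not state whether the tumours of a group grew in separate mice, and the spread behind every p-value is that between these 8 tumours, whatever its source.

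Arginase 1 (cytosolic) and arginase 2 (mitochondrial) split arginine into ornithine and urea, and NOS2 uses the same arginine to make nitric oxide. In mouse macrophages Arg1 is the classical gene of the interleukin 4 and interleukin 13 response, and Nos2 that of interferon gamma and microbial signals. COX2, the product of Ptgs2, makes the precursor of prostaglandin E2, and its gene is an immediate response gene of growth factors and inflammatory cytokines, in carcinoma cells as well as in leucocytes. Interleukin 10 is a cytokine of macrophages, regulatory T cells and other lymphocytes that limits antigen presentation and inflammatory cytokines. Since whole tumours were read, more cells that hold a transcript and more transcript per cell cannot be told apart.

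Levels are log2 normalized counts as deposited. Whole counts recovered from them summed to between 1028938 and 1167694 per CXCL10 tumour and between 973697 and 1021358 per vehicle tumour. All 8 measured markers of epithelial and carcinoma cells had values in every tumour, and their summed level ran from 37703 to 67344 normalized counts in CXCL10 tumours and from 28220 to 43301 in vehicle tumours. At an adjusted p under 0.05, limma called 2 of 693 genes (0.289%), Cd96 and Il18r1, both higher in CXCL10 tumours. None of the 5 genes was called. At an unadjusted p under 0.05 the share of genes was 19.0% (15.0% higher and 4.04% lower), and again none of the 5 was among them. In all 5 genes the groups overlapped, whereas they did not overlap in 10.8% of all genes (7.79% higher and 3.03% lower in every CXCL10 tumour).

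Arg1 (Entrez 11846) had a higher mean after CXCL10, with overlapping groups. Its log2 level was 9.28, 9.55, 9.78 and 10.16 in CXCL10 tumours 1 to 4, against 9.03, 9.64, 9.20 and 9.33 in vehicle tumours 1 to 4. CXCL10 tumours 3 and 4 lay above every vehicle tumour, while vehicle tumour 2 lay above CXCL10 tumours 1 and 2. The mean was 9.69 ± 0.37 in CXCL10 tumours and 9.30 ± 0.26 in vehicle tumours (SD, n = 4 each). The log2 difference of 0.39 (SE 0.20, 95% interval -0.050 to 0.84), a 1.31-fold ratio, did not pass (limma adjusted p = 0.316). Its rank by p was 165 of 693, and without CXCL10 tumour 4 the difference was 0.24.

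Arg2 (Entrez 11847) was the single member with a lower mean after CXCL10. Its log2 level was 7.41, 7.29, 7.84 and 8.10 in CXCL10 tumours 1 to 4, against 7.77, 8.33, 7.67 and 7.60 in vehicle tumours 1 to 4. CXCL10 tumours 1 and 2 held the lowest levels of the 8 tumours, and vehicle tumour 2 the highest. The mean was 7.66 ± 0.38 in CXCL10 tumours and 7.85 ± 0.33 in vehicle tumours (SD, n = 4 each), a log2 difference of -0.18 (SE 0.22, 95% interval -0.67 to 0.30, limma adjusted p = 0.666). Without vehicle tumour 2 the difference was -0.022, and without CXCL10 tumour 4 it was -0.33.

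Nos2 (Entrez 18126) differed mainly through 1 tumour. Its log2 level was 6.72, 6.80, 6.36 and 7.83 in CXCL10 tumours 1 to 4, against 6.985, 6.999, 6.30 and 6.81 in vehicle tumours 1 to 4. CXCL10 tumour 4 lay above all others, and the remaining CXCL10 tumours lay within the range of the vehicle tumours. As recovered counts, CXCL10 tumour 4 had 234, the other CXCL10 tumours 87 to 115 and the vehicle tumours 81 to 125. The mean was 6.93 ± 0.63 in CXCL10 tumours and 6.77 ± 0.33 in vehicle tumours (SD, n = 4 each), a log2 difference of 0.16 (SE 0.29, 95% interval -0.49 to 0.80, limma adjusted p = 0.784). Without CXCL10 tumour 4 the difference was -0.14, and without vehicle tumour 3 it was -0.0017.

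**Figure D1:**
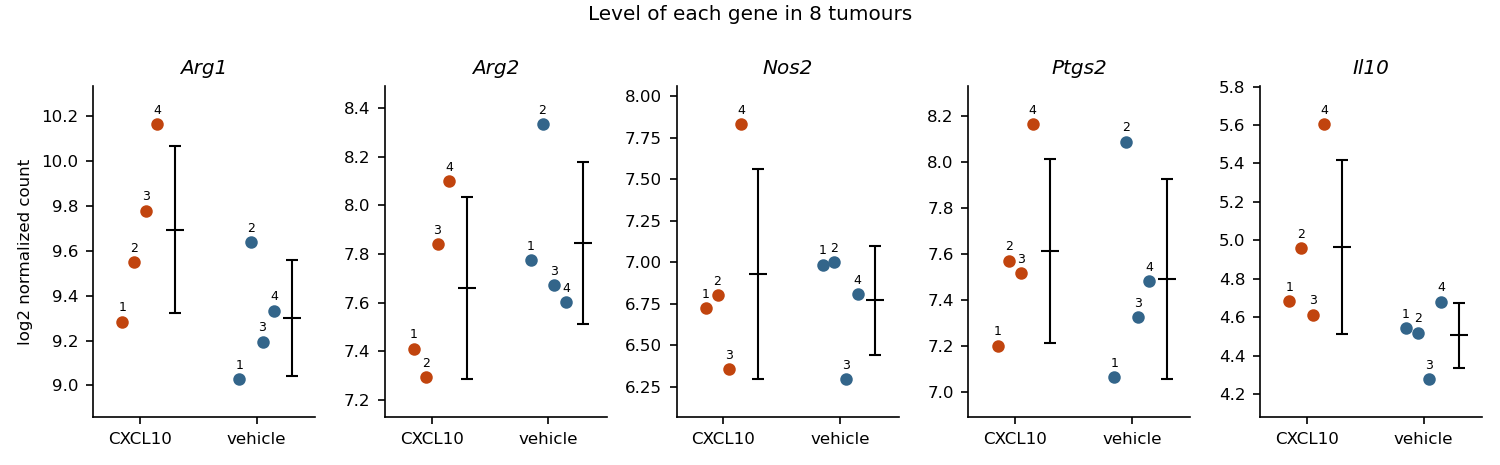
Log2 normalized count (y axis) of the 5 genes in 4 CXCL10 tumours (orange, left) and 4 vehicle tumours (blue, right), each point labelled with its tumour number, with the group mean and SD as a black bar. The groups overlap in every panel, and CXCL10 tumour 4 is the highest of the 8 tumours for Arg1, Nos2, Ptgs2 and Il10. The y axes differ between panels and do not start at 0.

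Ptgs2 (Entrez 19225) had 1 high tumour in each group. Its log2 level was 7.20, 7.57, 7.51 and 8.16 in CXCL10 tumours 1 to 4, against 7.06, 8.09, 7.32 and 7.48 in vehicle tumours 1 to 4. CXCL10 tumour 4 and vehicle tumour 2 stood above the other 6 tumours, which ranged from 7.06 to 7.57. The mean was 7.61 ± 0.40 in CXCL10 tumours and 7.49 ± 0.44 in vehicle tumours (SD, n = 4 each), a log2 difference of 0.12 (SE 0.25, 95% interval -0.43 to 0.68, limma adjusted p = 0.805). The difference was -0.061 without CXCL10 tumour 4 and -0.019 without vehicle tumour 1, and it was 0.32 without vehicle tumour 2.

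Il10 (Entrez 16153) had few counts and the smallest p of the 5 genes. Recovered counts were 28, 29, 26 and 50 in CXCL10 tumours 1 to 4, against 23, 21, 20 and 25 in vehicle tumours 1 to 4. After the authors' scaling the log2 level was 4.69, 4.96, 4.62 and 5.60 in CXCL10 tumours 1 to 4, against 4.54, 4.52, 4.28 and 4.68 in vehicle tumours 1 to 4. CXCL10 tumour 3 lay just below vehicle tumour 4, and the other 3 CXCL10 tumours lay above all vehicle tumours. The mean was 4.97 ± 0.45 in CXCL10 tumours and 4.51 ± 0.17 in vehicle tumours (SD, n = 4 each), and the log2 difference of 0.46 (SE 0.21, 95% interval -0.0055 to 0.93), a 1.38-fold ratio, did not pass (limma adjusted p = 0.259). Counting error alone gives an SD of about 0.26 in CXCL10 and 0.31 in vehicle tumours on the log2 scale, so the spread of 0.17 among vehicle tumours is below counting error. The count of 50 has a 95% Poisson interval of 37.1 to 65.9 and the count of 25 in vehicle tumour 4 one of 16.2 to 36.9, which cover counting error only. Whether Il10 lay above probe background was not assessed. Without CXCL10 tumour 4 its difference was 0.25.

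Across the 5 genes, CXCL10 tumour 4 was the highest of the 8 tumours for Arg1, Nos2, Ptgs2 and Il10, and vehicle tumour 2 for Arg2. CXCL10 tumour 4 was also the highest for 231 of all 693 genes (33.3%), and CXCL10 tumour 2 for 238 (34.3%). The total count of CXCL10 tumour 4 was the highest of the 8. All 5 genes lay above the panel median in the authors' deposited coefficient of variation over the 8 lanes. It was 36.8% for Nos2, 32.1% for Il10, 26.7% for Arg1, 25.7% for Ptgs2 and 21.4% for Arg2, against a median of 16.2% over the 693 genes. Recovered counts reproduce this coefficient without scaling, so it includes differences in depth and counting error. Counting error is large for Il10, at 20 to 50 counts.

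The median log2 difference of all 693 genes was 0.13 on the authors' scaling, with 482 genes (69.6%) higher in CXCL10 tumours. Relative to that median Arg1 stood at 0.27, Il10 at 0.33, Nos2 at 0.030, Ptgs2 at -0.0032 and Arg2 at -0.31. The higher means of Nos2 and Ptgs2 were therefore about the size of the shift that the panel shows as a whole. With median-of-ratios scaling, which takes the panel median to 0.021, the differences were 0.29 for Arg1, 0.35 for Il10, 0.051 for Nos2, 0.018 for Ptgs2 and -0.29 for Arg2.

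**Figure D2:**
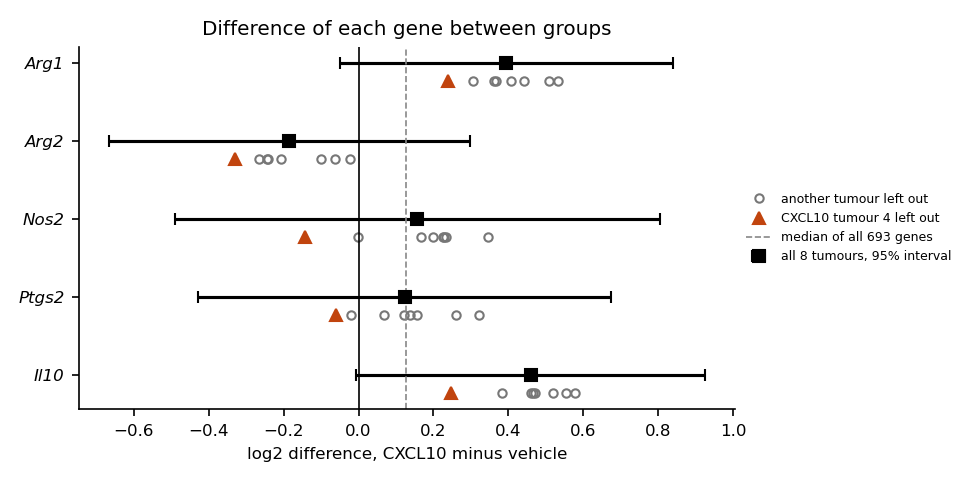
Log2 difference of CXCL10 minus vehicle tumours (x axis) for the 5 genes. Black squares with bars are all 8 tumours with the 95% interval of limma, orange triangles leave out CXCL10 tumour 4, grey circles leave out each other tumour, and the dashed line is the median of all 693 genes. Each interval includes 0, and the triangle is the lowest value for every gene.

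A ratio of 2 transcripts within a tumour does not depend on how tumours are scaled, although its absolute size depends on the probes and only its difference between groups can be read. Arg1 over Nos2, the enzymes that share arginine, had a log2 ratio of 2.56, 2.75, 3.42 and 2.33 in CXCL10 tumours 1 to 4, against 2.04, 2.64, 2.90 and 2.53 in vehicle tumours 1 to 4. The groups overlapped, and the lowest CXCL10 value was that of tumour 4, where both transcripts were high. The difference of 0.24 gave p = 0.486 in a two-sided exact permutation test, whose smallest possible p is 0.0286 with n = 4 each.

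Of the 10 ratios among the 5 genes, 2 did not overlap between the groups, against 10.5% of the 239778 ratios that the 693 genes allow. Arg1 over Arg2 had a log2 ratio of 1.87, 2.26, 1.94 and 2.06 in CXCL10 tumours 1 to 4, against 1.25, 1.31, 1.52 and 1.73 in vehicle tumours 1 to 4. Every CXCL10 tumour lay above every vehicle tumour, and the mean log2 ratio was 2.03 ± 0.17 in CXCL10 tumours and 1.45 ± 0.22 in vehicle tumours (SD, n = 4 each), a difference of 0.58 or 1.49-fold. Arg1 over Ptgs2 was the other such ratio, at 2.08 ± 0.13 in CXCL10 tumours and 1.81 ± 0.18 in vehicle tumours (SD, n = 4 each), with a narrow gap between the lowest CXCL10 value of 1.98 and the highest vehicle value of 1.96. These 2 ratios were picked for not overlapping, so they are given with no test. Of the ratios of Arg2 to each of the other 692 genes, 9.54% lay lower in every CXCL10 tumour and 0.145% higher. Of the ratios of Arg1 to each of them, 5.35% lay higher in every CXCL10 tumour and 0.289% lower.

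**Figure D3:**
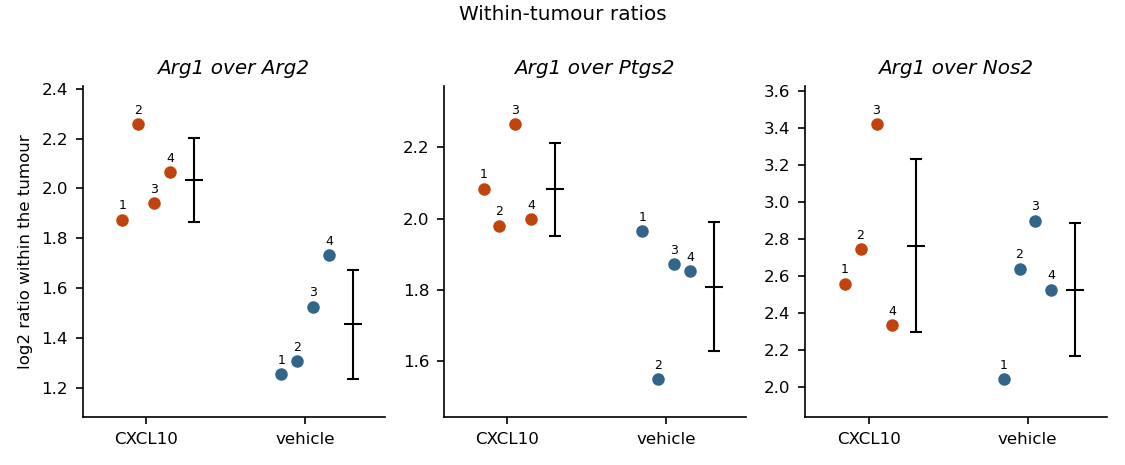
Log2 ratio of 2 transcripts within each tumour (y axis) for Arg1 over Arg2, Arg1 over Ptgs2 and Arg1 over Nos2, in 4 CXCL10 tumours (orange, left) and 4 vehicle tumours (blue, right), numbered by tumour, with mean and SD in black. The groups do not overlap in the first 2 panels and overlap in the third. The y axes differ and do not start at 0.

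Next, the pattern of each gene over the 8 tumours was set beside those of all other genes. For each gene, the 3 genes of highest Pearson correlation among the 692 others are named, as a description with no p, since they were picked as the highest. The tumours share a panel and a scaling, and a single high tumour can carry such a correlation.

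Arg2 followed several genes of neutrophils. The nearest were S100a8, a subunit of the calprotectin of neutrophils and monocytes (r = 0.979, Spearman's rho = 1.00), Il1b, the gene of interleukin 1 beta (r = 0.972, rho = 0.976), and Csf3r, the receptor of granulocyte colony-stimulating factor (r = 0.961, rho = 0.929). Cxcr2, the chemokine receptor of neutrophils, was the fourth (r = 0.940). With the tumours farthest from the median of Arg2 left out (CXCL10 tumour 2 and vehicle tumour 2), the 3 correlations were 0.979, 0.948 and 0.981.

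S100a8 had log2 levels of 12.01, 11.42, 12.60 and 12.90 in CXCL10 tumours 1 to 4, against 12.42, 13.27, 12.29 and 12.09 in vehicle tumours 1 to 4. Its order over the 8 tumours was the same as that of Arg2. Its group difference of -0.29 (SE 0.34) did not pass (limma adjusted p = 0.667).

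**Figure D4:**
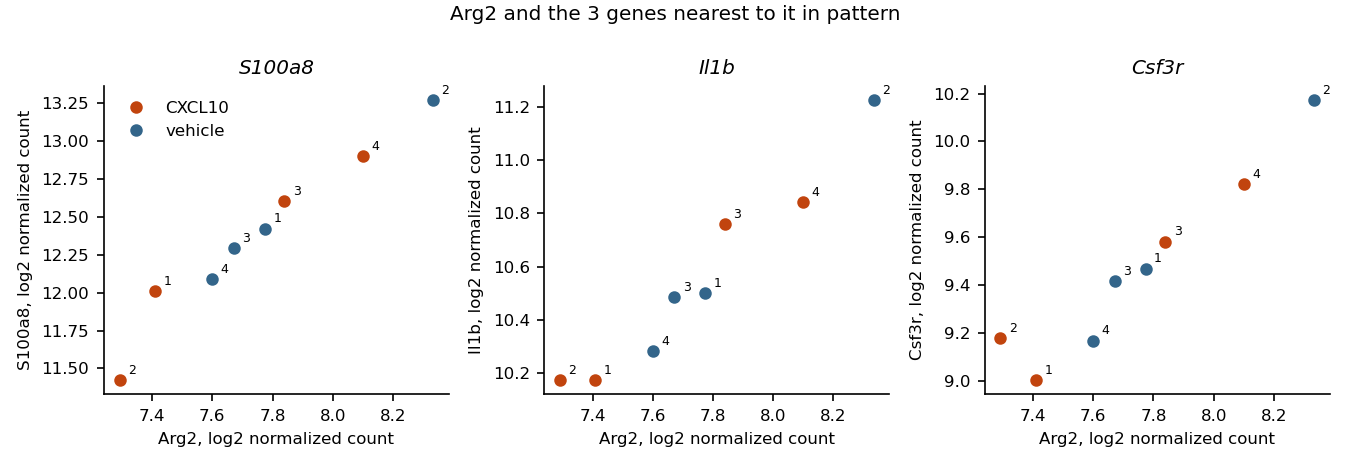
Log2 normalized count of S100a8, Il1b and Csf3r (y axes) against that of Arg2 (x axis) in 4 CXCL10 tumours (orange) and 4 vehicle tumours (blue), numbered by tumour. Points of both groups lie along 1 rising line, with r from 0.961 to 0.979. These 3 genes were picked as the nearest of 692.

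The list of neutrophil markers had 11 of 20 genes measured, of which 6 had higher and 5 lower means in CXCL10 tumours, with a median log2 difference of 0.010, below 0 under the other 3 scalings, and 0 called. That median was -0.29 without vehicle tumour 4, -0.19 without CXCL10 tumour 4 and -0.15 without CXCL10 tumour 3. Its summed level ran from 7832 to 15920 normalized counts in CXCL10 tumours and from 9105 to 18553 in vehicle tumours, and no measured member was at 0. The log2 sum had r = 0.967 (rho = 0.976) with Arg2 over the 8 tumours. S100a8 made up between 35.1% and 53.3% of that sum, and without it r was 0.873. Over the 11 genes the median r with Arg2 was 0.742, and 5 had an r over 0.8. Mmp9 had the lowest positive r (0.522). The single negative r was that of Prg2 (-0.856), a granule protein gene best known from eosinophils. The 17 monocyte and macrophage markers had a median r of -0.152 with Arg2, and 1 of them, Cd14, had an r over 0.8 (0.858). Ly6g, Mpo and Elane were among the markers not measured. Arg2 relative to the summed list had a log2 ratio of -5.81 ± 0.16 in CXCL10 tumours and -5.75 ± 0.13 in vehicle tumours (SD, n = 4 each), with a smaller spread than that of Arg2 itself. The part of neutrophil content in the level of Arg2 was not tested.

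Arg1 had lower correlations with most of these neutrophil genes. Its r was 0.427 with S100a8, 0.529 with Csf3r and 0.435 with Cxcr2, but 0.877 with Trem1 and 0.840 with Il1r2, and its median r was 0.435 over the 11 neutrophil markers and 0.400 over all 692 genes. Its r with the summed neutrophil list was 0.516, or 0.716 without CXCL10 tumour 2 and vehicle tumour 2, the farthest from the median of that sum, and its r with the summed list of 17 measured monocyte and macrophage markers was 0.244. The nearest genes to Arg1 were Fas, a death receptor (r = 0.963, rho = 0.857), Lif, a cytokine of the interleukin 6 family (r = 0.960, rho = 0.905), and Stat6, the transcription factor that carries the interleukin 4 and interleukin 13 signal (r = 0.940, rho = 0.952). With CXCL10 tumour 4 and vehicle tumour 1 left out the 3 correlations were 0.949, 0.861 and 0.885. Stat6 had a log2 level of 10.85 ± 0.12 in CXCL10 tumours and 10.64 ± 0.10 in vehicle tumours (SD, n = 4 each), with a log2 difference of 0.21 that did not pass (limma adjusted p = 0.338). The 8 measured epithelial markers had a median r of 0.615 with Arg1, from 0.893 for Epcam, a surface protein of epithelial and carcinoma cells, and 0.861 for Anxa1 down to 0.0764 for Itgb4 and -0.506 for Cd9. This was not particular to Arg1, since these markers had a median r of 0.624 with Ptgs2. With Il10, Arg2 and Nos2 their median r was 0.379, 0.328 and 0.200. Their median log2 difference was 0.056, with 5 higher and 3 lower means, and it lay below 0 under the other 3 scalings. Their sum was highest in CXCL10 tumour 4, as was Arg1, but Anxa1 made up between 48.4% and 75.1% of it. Without Anxa1, the other 7 summed to between 14548 and 16774 normalized counts in CXCL10 tumours and between 13761 and 15362 in vehicle tumours, again highest in CXCL10 tumour 4, and that log2 sum had r = 0.987 with Arg1. This sum was formed after the values were seen and was set beside Arg1 alone, so its r is a description with no test. Its 7 genes did not vary together with Arg1, with single r values from 0.893 for Epcam down to -0.506 for Cd9. The share of each of them in the sum was not computed. The part of carcinoma cell content in the level of Arg1 was not tested. Clu, the gene of clusterin, had the lowest correlation with Arg1 of all 692 genes, at -0.876.

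Nos2 was nearest to Nod1, a sensor of bacterial cell wall fragments (r = 0.964, rho = 0.833), Snai1, a transcription factor of epithelial-mesenchymal transition (r = 0.950, rho = 0.690), and Tap2, a peptide transporter of class I antigen presentation (r = 0.919, rho = 0.810). Without CXCL10 tumour 4 and vehicle tumour 3, which were farthest from the median of Nos2, the correlations were 0.812, 0.842 and 0.436, so that with Tap2 rested on those tumours. Tap2 itself was high in CXCL10 tumour 4 at 10.58, against 9.91 to 9.92 in the other CXCL10 tumours and 9.53 to 10.08 in vehicle tumours.

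Il10 was nearest to Il6ra, the interleukin 6 receptor (r = 0.962, rho = 0.738), Tnfrsf14, the receptor HVEM (r = 0.933, rho = 0.595), and Batf, a transcription factor of activated lymphocytes (r = 0.930, rho = 0.976). Without CXCL10 tumour 4 and vehicle tumour 3 these were 0.820, 0.597 and 0.924. The r of Il10 was 0.301 with the summed monocyte and macrophage markers. As a median over single genes, its r was 0.0379 with the 17 monocyte and macrophage markers, 0.627 with the 14 measured T cell markers and 0.382 with all 692 genes. The summed T cell markers were highest in CXCL10 tumour 4, as was Il10, and these medians were not computed without that tumour.

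Ptgs2 was nearest to Fos (r = 0.938, rho = 0.810) and Jun (r = 0.901, rho = 0.929), immediate early genes whose products form the transcription factor AP-1, and to Cxcl2, a chemokine that draws neutrophils (r = 0.902, rho = 0.857). Like Ptgs2, Fos was high in CXCL10 tumour 4 at 9.97 and in vehicle tumour 2 at 10.01, with 9.22 to 9.59 in the other 6 tumours. Without those tumours the correlations were 0.709 for Fos, 0.724 for Jun and 0.457 for Cxcl2, so that with Cxcl2 rested on them. The group differences were 0.11 for Fos, -0.019 for Jun and 0.18 for Cxcl2, and none passed (limma adjusted p from 0.590 to 0.956).

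Of the 5 genes, Ptgs2 has an entry in the RefSeq promoter table used here (build GRCm38.p6). Its sequence is shown because Ptgs2 varied with Fos and Jun, and stimulus-driven transcription of mouse Ptgs2 is known to run through short elements close to the start. Capitals mark matches to the motifs searched on both strands over the 300 bases around the annotated start: the CRE core TGACG, the E-box CACGTG, the AP-1 site TGANTCA, the C/EBP palindrome TTGCGCAA and a kappaB-like motif. The first line gives the 250 bases before the start (chr1:150099781-150100030, plus strand), and the second a site of 30 bases after it (chr1:150100041-150100070, plus strand).
Ptgs2, before the start: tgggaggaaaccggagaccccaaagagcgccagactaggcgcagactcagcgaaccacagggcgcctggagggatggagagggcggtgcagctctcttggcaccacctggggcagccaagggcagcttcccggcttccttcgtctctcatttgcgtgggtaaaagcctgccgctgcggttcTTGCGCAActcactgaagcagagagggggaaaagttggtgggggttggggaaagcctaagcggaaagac
Ptgs2, site after the start: ctaCGTCACGTGgagtccgctttacagact
Positions count from the annotated start, and whether transcription begins there in these tumours was not tested. The C/EBP palindrome lay 69 to 62 bases before the annotated start, and 0.183% of the 32851 promoter windows of that length in the table hold it. The CRE core (on the minus strand, bases 14 to 18 after the start) and the E-box (bases 17 to 22) overlap, so their capitals run together, and 20.8% and 7.15% of windows hold them. The AP-1 letters and the kappaB-like motif had 0 matches in this window, and 7.81% and 4.79% of windows hold them. Sequence outside the window was not searched. A match is a description of the letters and shows no binding in these tumours.

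Among one another, Arg1 and Ptgs2 had the highest correlation of the 10 pairs (r = 0.856, or 0.746 without CXCL10 tumour 4). Nos2 and Il10 had r = 0.833 over 8 tumours and 0.378 without CXCL10 tumour 4, and Arg1 and Il10 had 0.759 and 0.341. Arg2 and Il10 had the lowest, at 0.126 over 8 tumours and -0.533 without CXCL10 tumour 4.

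Genes of the related pathways showed no call in either direction. Over all 693 genes, 69.6% had higher means in CXCL10 tumours. Arginine and nitric oxide handling had 3 of 13 listed genes measured, all of them members. In alternative activation and interleukin 4 and 13 signalling, the setting of Arg1 in macrophages, 12 of 18 measured genes had higher and 6 lower means, with a median log2 difference of 0.096 against 0.13 over all genes. That median was -0.11 without CXCL10 tumour 2 and just below 0 with median-of-ratios scaling (-0.0091). Il13ra2, a decoy receptor of interleukin 13, stood at 0.75 (SE 0.43, limma adjusted p = 0.360), Stat6 at 0.21 and Il13ra1, a signalling chain, at 0.24. Macrophage genes of this list stood at 0.10 for Mrc1, 0.09 for Msr1, 0.45 for Chil3 and 0.27 for Cd163, while Pparg stood at -0.21 and Irf4, the lowest of the list, at -0.28, and none passed.

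Among inducers and mediators of NOS2, 12 of 19 measured genes had higher means (69.6% of all genes), with a median of 0.092. Ifng, the gene of interferon gamma, had a log2 level of 6.13 ± 0.34 in CXCL10 tumours and 5.61 ± 0.31 in vehicle tumours (SD, n = 4 each), and the log2 difference of 0.52 (SE 0.20) did not pass (limma adjusted p = 0.214). Its level was highest in CXCL10 tumour 2 at 6.44. CXCL10 tumour 4, where Nos2 was highest, came next at 6.39, above every vehicle tumour. Irf1, a transcription factor needed for Nos2 induction in mouse macrophages, stood at 0.28 (adjusted p = 0.316) and Il1r1, the interleukin 1 receptor, at 0.32 (adjusted p = 0.330).

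**Figure D5:**
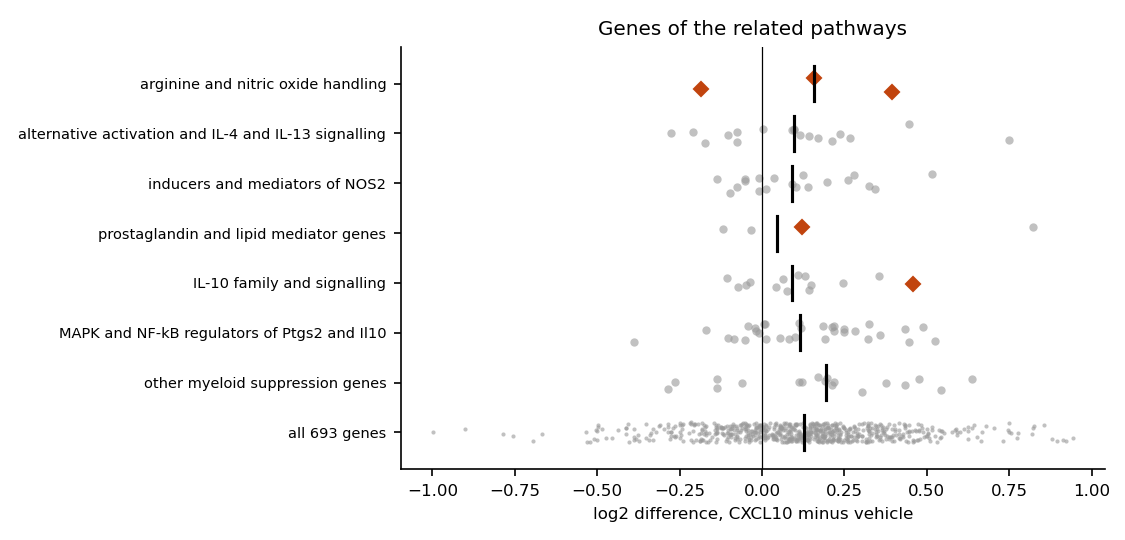
Log2 difference of CXCL10 minus vehicle tumours (x axis) for the measured genes of 7 lists and for all 693 genes (bottom row). Orange diamonds are Arg1, Arg2, Nos2, Ptgs2 and Il10, grey points are other genes, and black bars are medians. The list medians lie between 0.045 and 0.19, against 0.13 for all genes. Vertical scatter within a row has no meaning.

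Of 22 listed prostaglandin and lipid mediator genes 4 were measured. Besides Ptgs2 these were Anxa1, whose product annexin A1 restrains phospholipase A2, at 0.82 (SE 0.29, limma adjusted p = 0.190), the phospholipase gene Pla2g6 at -0.12 and the prostaglandin D2 receptor gene Ptgdr2 at -0.033. In the interleukin 10 family and its signalling, 10 of 14 measured genes had higher means (69.6% of all genes), with a median of 0.092. Il10 had the largest difference of that list. Il10ra, the ligand-binding receptor chain, stood at -0.11, Stat3, the factor that carries its signal, at 0.04 and Socs3, a target of that factor, at -0.07.

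The list of MAPK and NF-kB regulators was measured in full. Of its 32 genes 23 had higher means, against 69.6% of all genes, with a median of 0.11 against 0.13. The immediate early gene Egr1 lay lower in every CXCL10 tumour, as did 3.03% of all genes. The level of Egr1 was 9.40 ± 0.20 in CXCL10 tumours and 9.78 ± 0.15 in vehicle tumours (SD, n = 4 each). Its log2 difference of -0.39 (SE 0.14) did not pass (limma adjusted p = 0.195). The kinase gene Map2k1 stood at 0.28 and the transcription factor gene Elk1 at 0.52, with counts of Elk1 down to 19. In that list 8 of 32 genes had an unadjusted p under 0.05, against 19.0% of all genes, and 0 passed after adjustment.

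Other myeloid suppression genes had higher means in 13 of 18 measured cases, against 69.6% of all genes. Their median was 0.19, the highest of the 7 pathway lists. Ccl2, which draws monocytes, had a log2 level of 12.14 ± 0.16 in CXCL10 tumours and 11.60 ± 0.37 in vehicle tumours (SD, n = 4 each). Its groups were set apart by a very narrow gap, between the lowest CXCL10 value of 11.995 and the highest vehicle value of 11.994. Of all genes, 7.79% lay higher in every CXCL10 tumour. The Ccl2 difference of 0.54 (SE 0.18) did not pass (limma adjusted p = 0.185). Vegfa stood at 0.48 (adjusted p = 0.233). Ido1, which degrades tryptophan, stood at 0.64 (adjusted p = 0.302) and, like Arg1, Nos2, Ptgs2 and Il10, was highest in CXCL10 tumour 4.

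Markers of the cells that can hold these transcripts were measured beside them. Of 20 listed monocyte and macrophage markers 17 were measured, 9 with higher and 8 with lower means, a median log2 difference of 0.020 and 0 called. That median was -0.20 without CXCL10 tumour 2 and lay below 0 under the other 3 scalings. Their summed level ran from 59204 to 75720 normalized counts in CXCL10 tumours and from 60471 to 66104 in vehicle tumours, and no measured member was at 0. CXCL10 tumour 4, where Arg1, Nos2, Ptgs2 and Il10 were highest, had a sum of 64405, inside the vehicle range. T cell markers had higher means in 13 of 14 and NK cell markers in 13 of 13 measured genes, against 69.6% of all genes. Their medians were 0.24 and 0.32. Fibroblast and matrix markers had lower means in 8 of 9 and endothelial markers in 9 of 10, with medians of -0.27 and -0.37. None of these passed over all genes, and their part in the levels of the 5 genes was not tested.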

How the data were processed

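RNA of 8 tumours was read with a targeted probe panel, and groups follow the sample titles. The values the authors deposited and that were used here are log2 normalized counts of 693 genes. Per the file headers, 55 of 748 endogenous probes were pruned and 6 of 20 housekeeping probes entered the normalization. The sources used here do not give the instrument, software or genome build. A deposited column holds, per probe, the authors' coefficient of variation as a percent. Lane names of 16 further value columns could not be tied to any sample, so these were left out and probe background was not assessed. Taken out of log2, 100% of values in each tumour were whole multiples of 1 step (0.919 to 1.09 normalized counts, tolerance 0.02 counts). The coefficient computed from recovered counts was within 0.02 percentage points of that column for 693 of 693 genes. The depth was 973697 to 1167694 counts per tumour, and Poisson intervals cover counting error only.

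The model of limma 3.58.1 (lmFit, then eBayes, in R 4.3.3) had group as its single term, and p-values were adjusted by Benjamini-Hochberg across all 693 genes, with a threshold of 0.05. The fit was checked on simulated data. The ratio of Arg1 to Nos2 had an exact permutation test (scipy 1.17.1). Besides the members, the genes named by rule were, per member, the 3 of highest Pearson correlation, the 3 of smallest p in each pathway list, the first measured gene of each marker list and the genes called. Other genes and ratios named were chosen after their values were seen. The members and lists were chosen with earlier results of these data known. Alternatives tried were 3 other scalings, a variance trend, voom, a pseudocount of 10, a filter (a normalized count of 50 in at least 4 tumours), a replicate block and leaving out each tumour.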

Additional observations from a re-analysis of the deposited data

Results flagged for a closer look

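Among 116 sets of 4 values checked (48 named genes and the ratios among the 5 genes, per group), 12 had an end value set off from the other 3 by a gap above the 95% critical value of Dixon's ratio for 4 values. Chance sets off about 1 group in 20. No level of Arg1, Arg2, Nos2, Ptgs2 or Il10 was among them. The log2 ratio of Arg1 to Il10 was 5.16 in CXCL10 tumour 3, against 4.56 to 4.60 in the other CXCL10 tumours. In CXCL10 tumour 4, Tap2 was high at 10.58 (others 9.91 to 9.92) and Fos at 9.97 (others 9.51 to 9.55). In CXCL10 tumour 2, Cd68, a macrophage marker, was high at 11.65 (others 11.00 to 11.08), as was Itgax, a marker of dendritic cells and macrophages, at 8.90 (others 8.21 to 8.33). Egr1 was low in CXCL10 tumour 3 at 9.09 (others 9.49 to 9.51). In vehicle tumour 2, Fas was high at 9.07 (others 8.80 to 8.83), Stat6 at 10.79 (others 10.59 to 10.60) and Cxcl2 at 7.67 (others 7.002 to 7.12). In vehicle tumour 3, Nod1 was low at 9.06 (others 9.34 to 9.38) and Ptgdr2 at 5.04 (others 5.34 to 5.36). Elk1 was low in vehicle tumour 1 at 4.27 (others 5.17 to 5.32).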

How the results depend on the processing

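None of the 5 genes passed under any alternative, the lowest adjusted p being 0.173, for Arg1 without CXCL10 tumour 1 (79 values, Il10 having none under the filter of 50). Of 377 recomputed values 353 kept their direction and side of the threshold or moved by less than the spread between tumours, 4 reversed and 20 moved further. Nos2 turned to -0.14 without CXCL10 tumour 4 and to -0.0017 without vehicle tumour 3 (range 0.35 down to -0.14 over single tumours left out), and Ptgs2 to -0.061 without CXCL10 tumour 4 and -0.019 without vehicle tumour 1 (highest 0.32). Arg1 ranged from 0.24 to 0.53, Arg2 from -0.33 to -0.022 and Il10 from 0.25 to 0.58. The count of all genes called, 2 as reported, was 0 with median-of-ratios scaling, centring on the panel median, a variance trend, voom, a pseudocount of 10, the filter of 50 and the replicate block, and 1 with quantile normalization. It ranged from 0 to 5 over single tumours left out, with 5 without vehicle tumour 2. The median of MAPK and NF-kB regulators was 0.0094 with median-of-ratios scaling and 0.0077 with quantile normalization, against 0.11 as reported, and that of epithelial markers -0.050 and -0.060, against 0.056. Of 15 list medians above 0, 8 lay below 0 under each of these scalings, 5 under centring and 0 to 4 with a single tumour left out. With the replicate block Arg1 kept its difference of 0.39 (limma adjusted p = 0.270). Same-numbered tumours had correlations of deviations from group means from -0.32 to 0.25. Such correlations cannot show whether tumours that share a number were paired in the experiment. The ratio of Arg1 to Nos2 ranged from 0.020 to 0.38, with exact permutation p from 0.343 to 0.971. With 4 tumours a group, intervals for the 5 genes span about 0.9 to 1.3 log2 units. Il10, at 20 to 50 counts, is limited by counting error.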
